A study of Mus musculus with 6 samples.

Results

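The genes Runx1, Runx2 and Runx3 were examined for the Jun peaks that lie at them in rib chondrocytes of newborn mice. A peak was counted at a gene when its midpoint fell inside a fixed stretch of the mm9 genome. The stretch was 270 kb of chromosome 16 for Runx1 (92580001 to 92850000), 390 kb of chromosome 17 for Runx2 (44600001 to 44990000) and 120 kb of chromosome 4 for Runx3 (134640001 to 134760000). The rule used position only. Of the 99162 peaks in the list, 129 met it, 70 at Runx1, 47 at Runx2 and 12 at Runx3.

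The peaks came from 1 ChIP-seq library, a sequencing library of DNA recovered with an antibody against Jun. Its chondrocytes were freshly isolated from untreated wild-type ICR mice at postnatal day 1, and 1 library of input DNA was made from the same kind of cells. The series also holds 4 RNA-seq libraries, not analysed here, of rib chondrocytes that were sorted from Col10a1mCherry transgenic mice of the Swiss Webster strain (2 from postnatal day 1, 1 from postnatal day 3 and 1 from stage E18.5). The study set Jun binding beside Sox9 binding to ask how AP-1 takes part in chondrocyte hypertrophy. The ChIP library had no replicate, so no difference below was tested. The list gives positions only, with no height or read depth, and the identity of the cells could not be checked against marker genes.

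Runx proteins are transcription factors that bind DNA through the Runt domain together with the partner protein Cbfb. Runx2 is required for bone formation and drives the hypertrophic maturation of growth plate chondrocytes, where Runx3 shares part of its work. Runx1 is best known for its role in blood stem cells and is also expressed in early cartilage. Jun is a subunit of AP-1, a dimer that recognises the element TGANTCA. Genes of this family are transcribed from a distal and a proximal promoter.

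The promoters of the 3 genes were searched for sequence that they share. RefSeq (build GRCm38.p6) lists 5 promoters for the family, 2 of Runx1, 1 of Runx2 and 2 of Runx3, each given from 250 bases before to 50 bases after the start of transcription. The longest sequence found in a promoter of all 3 genes was 18 bases long. It is shown here in capitals within 30 bases of each promoter, read 5′ to 3′ on the gene's strand, because it is what the genes share that the choice by position did not use.

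Runx1 (minus strand, chr16:92826025-92826054): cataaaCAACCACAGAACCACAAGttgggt
Runx2 (minus strand, chr17:44814583-44814612): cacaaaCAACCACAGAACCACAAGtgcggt
Runx3 (plus strand, chr4:135120503-135120532): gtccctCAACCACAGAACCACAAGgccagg

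The shared run began 27 bases into the Runx1 transcript, 22 bases into the Runx2 transcript and at position -136 before the Runx3 start. It contains the Runx element TGTGGT 2 times, both on the opposite strand. Of all 32851 promoters in the table, 4 held the run on either strand, these 3 and that of Gm16225, a non-coding gene beside Runx3 whose promoter holds it on the other strand. The run was chosen for being in these 3, so their holding it was set in advance. Runs shared by other sets of genes were not examined, so the count is no measure of relation. The other promoter of Runx1 and that of Runx3 held neither the run nor TGTGGT. On both strands together, TGTGGT occurred in 16.8% of all promoters and the AP-1 element TGANTCA in 7.81%. None of the 5 Runx promoters held TGANTCA, which says only that these letters are missing from windows of this length. These positions belong to GRCm38 and cannot be set against the mm9 positions of the peaks, so which peaks lie at a promoter was not determined.

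Runx1 carried the highest density of Jun peaks of the 3 genes. Its 70 peaks amounted to 25.9 per 100 kb (95% exact Poisson interval 20.2 to 32.8). Runx2 followed with 12.1 per 100 kb (8.85 to 16) and Runx3 with 10.0 (5.17 to 17.5). The intervals of Runx1 lay apart from those of both relatives, and those of Runx2 and Runx3 overlapped. They cover counting error only, and grouped peaks make them narrower than they should be.

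Density at Runx1 was 2.15 times that at Runx2 (exact 95% interval 1.47 to 3.18) and 2.59 times that at Runx3 (1.39 to 5.26). The ratio of Runx3 to Runx2 was 0.83 (0.401 to 1.59), an interval that includes equal density. The lead of Runx1 was smaller when closely packed peaks were counted as 1 region. Merging tends to join more peaks where density is higher, so some fall in the ratio follows by construction. After merging of peaks at most 1000 bp apart, its 70 peaks became 35 regions, the 47 of Runx2 became 37 and the 12 of Runx3 became 9, and the density of Runx1 was 1.37 times that of Runx2 (0.836 to 2.23). Without the fullest group of Runx1, of 26 peaks, it was 1.5 times (0.969 to 2.31). The ratio of Runx3 to Runx1, 0.386 (0.19 to 0.717) over all peaks, became 0.579 (0.245 to 1.23) with merging and 0.555 (0.267 to 1.07) without that group. With merging or without the group, the intervals of both ratios include equal density. The group was left out at Runx1 alone, which lowers the density of Runx1 by construction. That setting is therefore not a like comparison of the genes. With each locus widened by 50 kb on both sides, the ratio of Runx3 to Runx1 rose to 0.708 (0.453 to 1.08) and that of Runx3 to Runx2 turned to 1.34 (0.839 to 2.12).

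All 3 loci were denser than their chromosomes. Chromosome 16 carried 3.67 peaks per 100 kb between its first and last peak, chromosome 17 carried 4.53 and chromosome 4 carried 4.13. Runx1 was 7.06-fold denser than its chromosome, Runx2 2.66-fold and Runx3 2.42-fold. The genome was also divided into tiles as long as each locus. Of tiles of 270 kb, 0.273% held at least 70 peaks, with a median of 6. Of tiles of 390 kb, 5.9% held 47 or more, with a median of 9. Of tiles of 120 kb, 12.5% held 12 or more, with a median of 2.

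The genes differed in how they stood against their surroundings. Runx1 lay above both neighbouring stretches of 500 kb, which held 13.0 peaks per 100 kb before it (10.0 to 16.6) and 9.0 after it (6.56 to 12.0). Runx2 lay above the 500 kb before it, with 5.2 per 100 kb (3.4 to 7.62), but its interval overlapped that of the 500 kb after it, with 9.8 (7.25 to 13.0). Runx3 was no denser than the sequence around it, which held 13.6 per 100 kb before it (10.6 to 17.2) and 14.8 after it (11.6 to 18.6), both with intervals that overlapped its own. In the GRCm38 annotation, the nearest protein-coding gene on one side of each Runx gene is a member of the Clic family, Clic6 for Runx1, Clic5 for Runx2 and Clic4 for Runx3, and Supt3 overlaps Runx2. Peaks were assigned by position alone, so some may belong to such a neighbour.

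**Figure D1:**
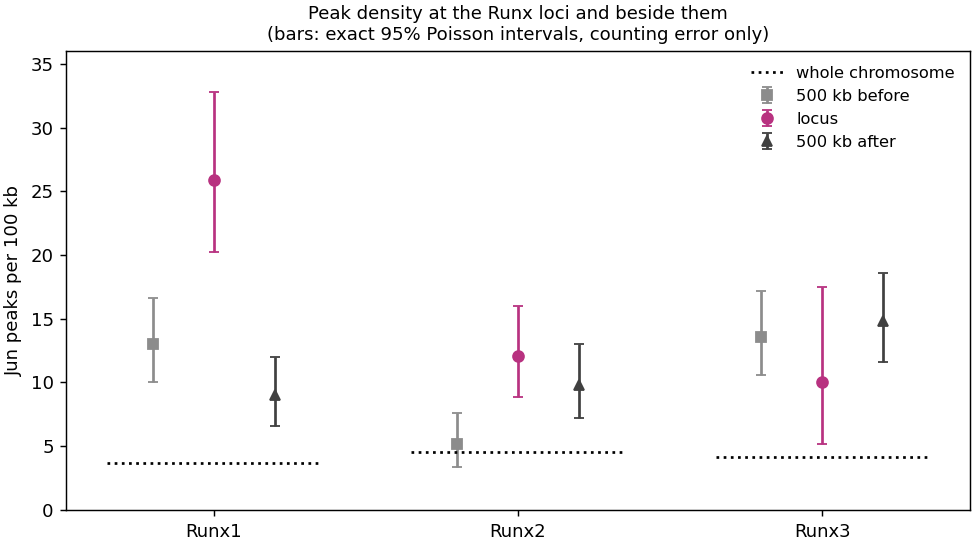
Jun peaks per 100 kb (vertical axis) at each Runx locus and in the 500 kb before and after it, with exact 95% Poisson intervals as bars and the mean of the whole chromosome as a dotted line. Runx1, at 25.9, stands above both of its flanks, while Runx3, at 10.0, lies below the values of its flanks with overlapping intervals.

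Within Runx1 the peaks were crowded toward 1 end. The first 135 kb of the locus by coordinate held 58 of the 70 peaks (82.9%), or 43.0 per 100 kb (32.6 to 55.5), and the remaining 135 kb held 12, or 8.89 per 100 kb (4.59 to 15.5). The sparse part of Runx1 thus had a density whose interval overlapped those of Runx2 and Runx3 as a whole. Counted in successive stretches of 30 kb, Runx1 held 12, 10, 9, 25, 2, 1, 4, 3 and 4 peaks. The fourth stretch, with 25 peaks, was the fullest, and 0.0339% of all 30 kb tiles in the genome held at least as many. It was picked as the fullest of 9 while the tiles were not picked, so that percentage overstates how unusual it was. The variance of the 9 counts was 7.26 times their mean.

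In counts per 30 kb, Runx2 was covered far more evenly. Its 13 stretches of 30 kb held between 1 and 8 peaks with a median of 4, and their variance was 0.901 times their mean. The fullest of them, with 8 peaks, ran from 44930001 to 44960000, and 2.08% of all 30 kb tiles held as many. The second 195 kb of the locus held 30 peaks and the first 195 kb held 17, at 15.4 (10.4 to 22.0) and 8.72 (5.08 to 14.0) per 100 kb, with overlapping intervals. At Runx3 the 4 stretches held 3, 2, 2 and 5 peaks, and 6.86% of all tiles held at least 5. The fullest stretches of Runx2 and Runx3 were also picked for their counts, so these percentages overstate how unusual they were. None of these fixed stretches of 30 kb was free of peaks. Longer peak-free stretches ran across their borders, of 33.4 kb at Runx1, 36.1 kb at Runx2 and 36.8 kb at Runx3.

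**Figure D2:**
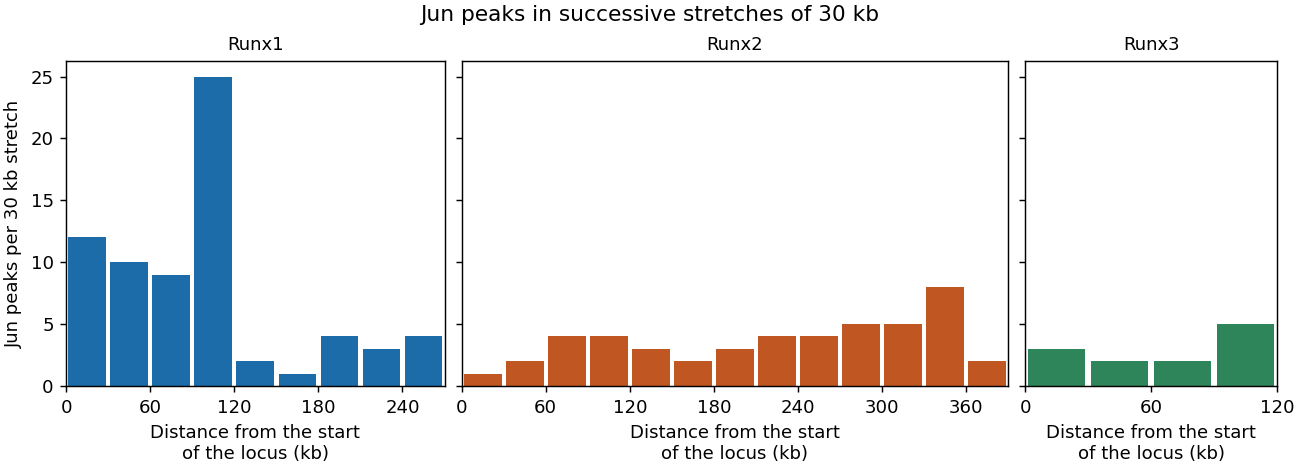
Number of Jun peaks (bars, vertical axis) in successive stretches of 30 kb along each Runx locus (horizontal axis, kb from the start of the locus by coordinate). Runx1 has 1 stretch with 25 peaks and low counts beyond it, while no stretch of Runx2 exceeds 8 peaks and none of Runx3 exceeds 5.

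Peaks at Runx1 lay closest to their next peaks. Spacing, shares within a fixed distance and group sizes all depend on density. They are therefore not a trait separate from the densities above. Whether grouping went beyond what density alone gives was not tested. The intervals of the shares below treat peaks as independent although neighbours share their spacing, so they are narrower than they should be. For 62 of its 70 peaks (88.6%, exact binomial interval 78.7 to 94.9) the next peak centre lay within 10 kb, against 61.3% of all peaks in the list. At Runx2 this held for 32 of 47 (68.1%, 52.9 to 80.9) and at Runx3 for 8 of 12 (66.7%, 34.9 to 90.1), both with intervals that include the share of the whole list. The median distance to the next peak was 1101 bp at Runx1, 4593 bp at Runx2 and 6205 bp at Runx3, against 5652 bp over the whole list. Merging within 1000 bp joined 48 of the Runx1 peaks (68.6%, 56.4 to 79.1) with another peak, where the share over all peaks was 41.8%. It joined 18 of 47 at Runx2 (38.3%, 24.5 to 53.6) and 6 of 12 at Runx3 (50.0%, 21.1 to 78.9).

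Joining peaks into groups wherever neighbouring centres lay within 10 kb gave 8 groups at Runx1, 15 at Runx2 and 5 at Runx3. Runx1 had 2 groups of 20 or more peaks, with 48 of its 70 peaks, while 7.8% of all peaks in the list lay in such groups. Neither Runx2 (0 of 47, exact upper limit 7.55%) nor Runx3 (0 of 12, upper limit 26.5%) had a peak in a group of that size. Of all 38356 groups in the list, 0.355% were at least as large as the fullest of Runx1, which was picked for its size. Lone peaks, with no other centre within 10 kb, were 2 at Runx1, 4 at Runx2 and 1 at Runx3, against a share of 19.3% over the whole list.

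The fullest Runx1 group held 26 peaks in 26.0 kb (92674378 to 92700377), with a median spacing of 589 bp. A group of 22 peaks spread over 50.9 kb (92584985 to 92635908) with a median spacing of 1350 bp, and a group of 9 peaks over 12.9 kb (92646149 to 92659006) stood between them. These 3 groups held 57 of the 58 peaks in the crowded part of the locus, and the other was a lone peak from 92710467 to 92710576. Beyond them lay groups of 4 peaks (92773886 to 92789087), 3 peaks (92808248 to 92810012) and 4 peaks (92824005 to 92826291). The longest stretch of Runx1 without a peak was 33.4 kb, from 92740523 to 92773885.

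Inside the fullest Runx1 group most peaks lay within 1000 bp of another, and some overlapped. Merging within 1000 bp gave a region of 7 peaks over 3769 bp (92682152 to 92685920), the one with the most peaks at any of the 3 genes. None of the peaks in that region overlapped. A region of 5 peaks over 1914 bp (92678880 to 92680793) held 3 peaks that overlapped in a row, by 119 and by 110 bp. In all, 7 of the 70 Runx1 peaks overlapped a neighbour (10.0%, 4.12 to 19.5), against 2.88% of all peaks. None did at Runx2 or Runx3. The 7 include a pair outside this group (92600776 to 92601406). Overlapping peaks come in sets, so the interval, which treats peaks as independent, is narrower than it should be. Whether a row of overlapping peaks is 1 broad area of binding that was divided during peak calling was not tested.

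At Runx2 the groups were small and many. Of the 15, 9 held 3 or more peaks, and these 9 lay between 44684995 and 44953247. The largest held 8 peaks in 12.4 kb (44940824 to 44953247), followed by 6 peaks in 14.2 kb (44899846 to 44913995) and 5 peaks in 9.53 kb (44865556 to 44875085). Groups of 4 peaks lay from 44684995 to 44692115 and from 44837386 to 44855264. The remaining 4 of these groups held 3 peaks each and started at 44702480, 44736983, 44791451 and 44815108. The longest stretch without a peak was 36.1 kb (44755375 to 44791450).

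Runx3 had 3 groups of 3 peaks inside its borders. The one starting at 134644645 continued past the border of the locus with 5 further peaks, while those from 134697781 to 134708910 and from 134745698 to 134747816 lay wholly inside. The last 2 peaks of the locus, at 134759272 and 134759770, belonged to a group with 12 further peaks beyond the border. Narrowing the locus by 20 kb on both sides lowered its density from 10.0 to 5.0 per 100 kb (1.36 to 12.8). The peaks of Runx3 thus lay largely near the borders of the locus, and the longest stretch without a peak, 36.8 kb (134708911 to 134745697), lay inside it.

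**Figure D3:**
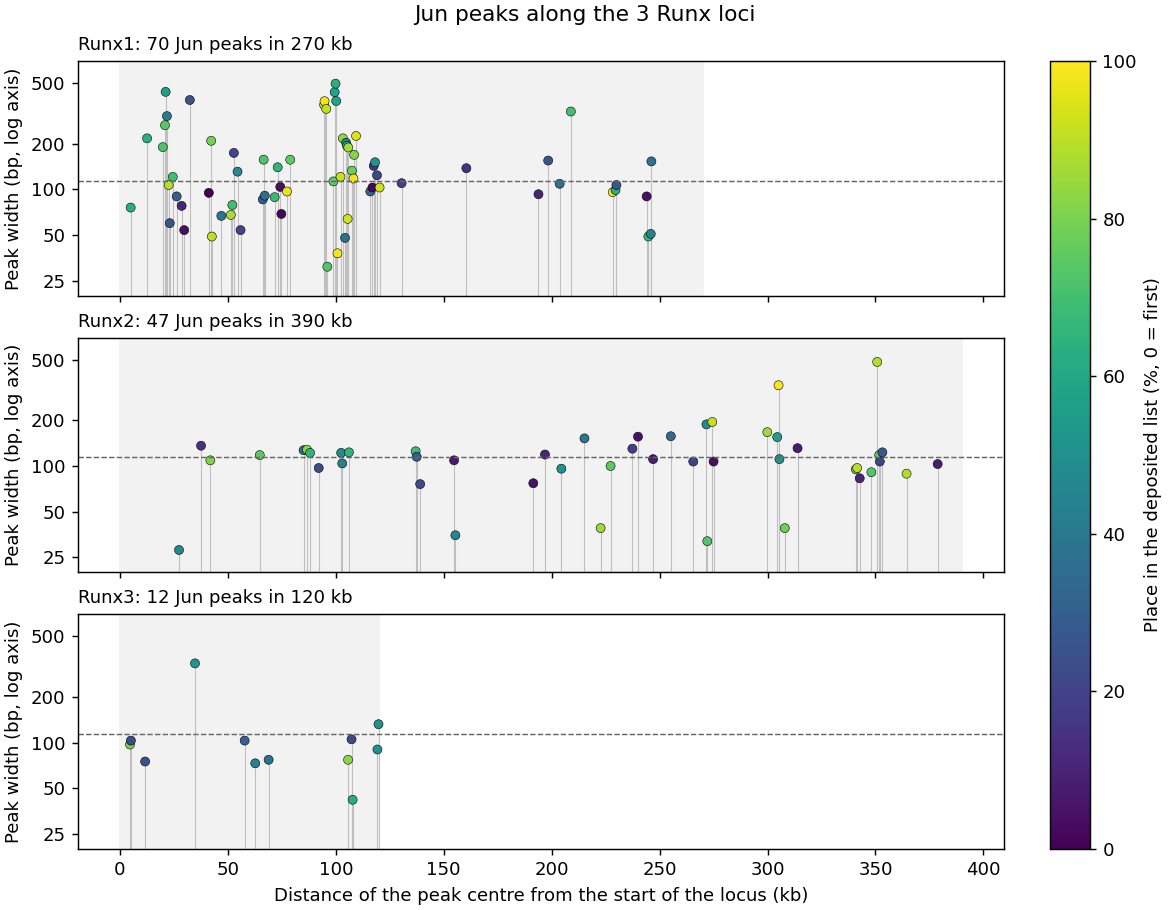
Each point is a Jun peak at its distance from the start of the locus (horizontal axis, kb) and with its width (vertical axis, bp, log scale), coloured by its place in the deposited list. The dashed line is the median width of all peaks, 114 bp. Runx1 shows wide peaks packed near 100 kb. Runx2 shows small groups and lone peaks along the locus, mostly under 200 bp wide, and Runx3 few peaks.

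Runx1 and Runx2 had median peak widths near that of the whole list, and Runx3 had a lower one. Median width was 115.5 bp at Runx1 (exact interval of the median 99 to 143), 111 bp at Runx2 (104 to 123) and 93.5 bp at Runx3 (75 to 105), against 114 bp over all peaks. The interval of Runx3 lay below the 114 bp of the list, also in the first 50% of the list (90 bp, 73 to 105). It included 114 bp with loci widened by 50 kb (103 bp, 77 to 125) or narrowed by 20 kb (90 bp, 73 to 332). It also did with peaks of at least 50 bp only (97 bp, 75 to 132) and with merged peaks (103 bp, 75 to 559). The same held in the last 50% of the list (93.5 bp, 42 to 332). The list median was not recomputed for peaks of at least 50 bp, merged peaks or parts of the list. The central 50% of widths ran from 89.25 to 189.75 bp at Runx1, from 96.5 to 129 bp at Runx2 and from 76.5 to 103.5 bp at Runx3. A width of at least 200 bp was reached by 16 of 70 peaks at Runx1 (22.9%, 13.7 to 34.4), by 2 of 47 at Runx2 (4.26%, 0.52 to 14.5) and by 1 of 12 at Runx3 (8.33%, 0.211 to 38.5), where 14.0% of all peaks reached it. The intervals of Runx1 and Runx2 overlapped narrowly, and both included the share of the whole list.

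Of the 16 wide Runx1 peaks, 9 lay in the group of 26, 6 in the group of 22 and 1 in the sparse part of the locus. The widest, of 497 bp, was at 92679608 to 92680104, in the middle of the 3 overlapping peaks. The widest peak of Runx2 measured 484 bp (44950583 to 44951066), in its largest group, and the widest of Runx3 measured 332 bp and was its only lone peak (134674656 to 134674987). Peaks under 50 bp numbered 5 at Runx1, 5 at Runx2 and 1 at Runx3, against 6.3% of all peaks. The narrowest were 31 bp at Runx1 (92676080 to 92676110), 28 bp at Runx2 (44627436 to 44627463) and 42 bp at Runx3 (134747775 to 134747816). The peaks covered 3.86% of the Runx1 locus, 1.48% of Runx2 and 1.09% of Runx3.

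The place of a peak in the list is given here as a percentage from the first row, and the meaning of the order is not given in the sources used here. Runx1 peaks spanned nearly the whole list, from row 120 to row 97738, with a median place of 61.8% (exact interval 41.2 to 69.7). Median places were 47.6% at Runx2 (29.3 to 68.7) and 47.4% at Runx3 (24.6 to 62.0). All 3 intervals included the middle of the list and overlapped each other. The first 10% of the list held 6 of the 70 Runx1 peaks (8.57%, 3.21 to 17.7), 7 of the 47 Runx2 peaks (14.9%, 6.2 to 28.3) and none of the 12 Runx3 peaks (upper limit 26.5%), against 10.0% of all peaks by construction. The last 10% held 12 (17.1%, 9.18 to 28.0), 2 and none of them in the same order of genes.

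The earliest peak at any of the 3 genes was a 95 bp peak in the 22-peak group of Runx1 (92621138 to 92621232), in row 120. The next of Runx1 were a 69 bp peak in the 9-peak group (92654812 to 92654880, row 1328) and a 103 bp peak in the 26-peak group (92696972 to 92697074, row 2710). Each of the 3 large Runx1 groups thus contained 1 of its 3 earliest rows. The earliest Runx2 peaks stood in rows 3966, 4271 and 4635 and lay in 3 separate groups (from 44874979, 44791451 and 44839966). The earliest of Runx3 were in rows 21766, 22002 and 24387 (from 134645086, 134747258 and 134651706). Fewer peaks give later first rows by construction, and Runx3 had 12 peaks against 70 at Runx1 and 47 at Runx2. These rows therefore do not compare the genes.

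The group of 26 at Runx1, picked for its size, had the latest median place of the groups of that locus. Its median place was 76.5%, with 20 of its 26 peaks in the last 50% of the list and 9 of them in the last 10%. In the group of 22, 11 peaks fell in each part of the list, with a median place of 52.1%. The other Runx1 groups of 3 or more peaks had median places from 32.6% to 65.3%, the latter in the group of 9. No intervals were computed for single groups. Without the group of 26, the median place of Runx1 peaks was 42.6% (29.1 to 65.3), the median width 102 bp (90 to 131) and the density 18.0 per 100 kb (13.1 to 24.2). Wide peaks came late at Runx1, with 13 of 16 in the last 50% of the list, and also over all peaks, with 9410 of 13920. Both wide peaks of Runx2 and the 1 of Runx3 were in the last 50% too.

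**Figure D4:**
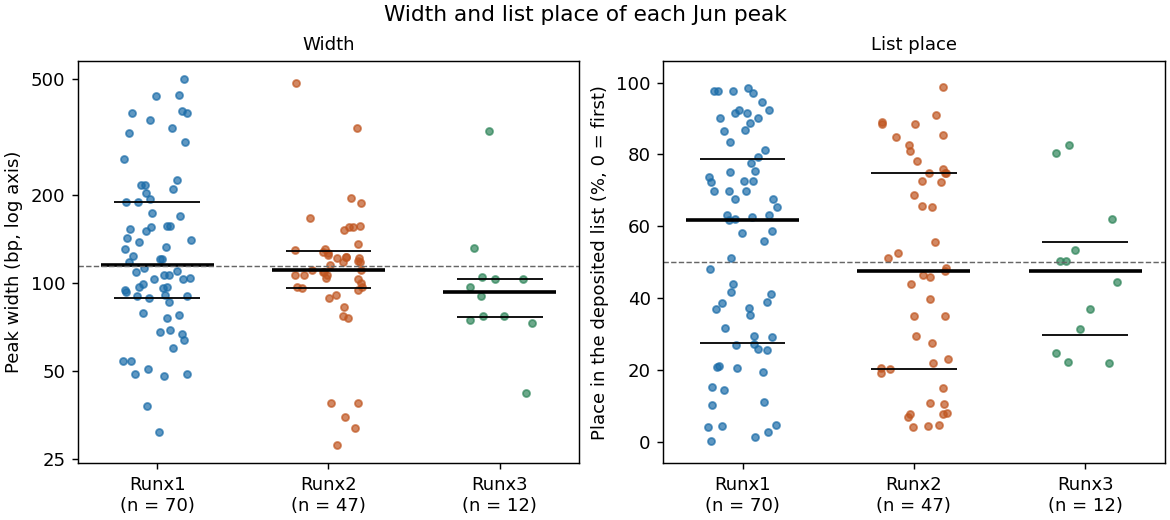
Width (left, bp, log scale) and place in the deposited list (right, %, 0 is the first row) of every Jun peak at the 3 genes. Thick bars are medians, thin bars mark the central 50%, and dashed lines are the median width of all peaks and the middle of the list. The central 50% of widths reaches farther up at Runx1, while the widest peaks of Runx1 and Runx2 are alike, at 497 and 484 bp. No Runx3 peak is in the first or last 10% of the list.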

How the data were processed

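The authors deposited 1 list of Jun peaks as chromosome, start and end, on mm9 per the submitters' processing notes, with no score. Aligner, peak caller and use of the input: not given in the sources used here. On the threshold, they hold only the mark FDR1 in the name of the list, without explaining it. This list was assigned to the only Jun library of the series, since it names no sample, and no input values stand beside the peaks. Chromatin of 20000000 cross-linked cells was sheared to 100 to 600 bp and amplified by 18 PCR cycles, per the labels' protocols. Read depth is unknown.

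Positions were counted from 1. Peaks were assigned by midpoint, chained within 10 kb and merged within 1000 bp, using Python 3.11.15, numpy 2.4.6, pandas 2.3.3 and scipy 1.17.1. Densities have exact Poisson intervals, ratios exact conditional intervals, shares Clopper-Pearson intervals and medians order-statistic intervals, all at 95%. Tiles formed a fixed grid from the first to the last peak of each chromosome. Chaining, merging and intervals were tested on simulated data. Peaks named are the 3 earliest, the widest and the narrowest of each locus, groups of 3 or more and the longest gap. Loci, rules and lists were chosen with earlier results of these data known. Motifs in peaks, gene parts and other genes of the Runx pathway need mm9 sequence or genes and were not analysed here. A planned comparison of Runx proteins was not made.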

Additional observations from a re-analysis of the deposited data

How the results depend on the processing

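Of 108 recalculated values for density, density ratio, grouping, width and list place, 81 stayed inside the 95% interval of the reported value. The density of Runx1 stayed above that of Runx2 and of Runx3 in each, while that of Runx3 rose above that of Runx2 with loci widened by 50 kb (ratio 1.34). Some orders were not kept under every alternative. These were Runx1 and Runx2 in median width, Runx1 and both relatives in list place, and Runx2 and Runx3 in grouping. Their intervals overlapped as reported. The other 27 were as follows. Merging peaks within 1000 bp gave 13.0 peaks per 100 kb at Runx1, a ratio of Runx1 to Runx2 of 1.37, a share within 10 kb of 77.1% and a median width of 155 bp at Runx1. Merging can only lower a density, and tends to lower it more where peaks are denser. The first 50% of the list gave 11.1, 6.41 and 5.0 peaks per 100 kb at Runx1, Runx2 and Runx3, and the last 50% gave 14.8, 5.64 and 5.0, lower by construction. In the first 50% the share within 10 kb was 70.0% at Runx1 and 48.0% at Runx2, and in the last 50% it was 50.0% at Runx2, with a median width of 146 bp at Runx1. The densest 100 kb held 54.0 peaks at Runx1 and 20 at Runx2, with a ratio of Runx3 to Runx1 of 0.167. Narrowing by 20 kb gave 5.0 peaks per 100 kb at Runx3 and ratios of 0.172 to Runx1 and 0.38 to Runx2. The share with a next peak within 2 kb was 68.6%, 31.9% and 33.3% at Runx1, Runx2 and Runx3, that within 5 kb 51.1% at Runx2, and that within 20 kb 95.7% at Runx1 and 85.1% at Runx2, as the distance sets. Leaving out the group of 26 was an alternative chosen after seeing the data and applied to Runx1 alone. With it Runx1 had 18.0 peaks per 100 kb, lower by construction, and its ratio to Runx2 no longer excluded equal density. In the first 50% of the list the ratios of Runx1 to Runx2, 1.73 (0.985 to 3.07), and of Runx3 to Runx1, 0.45 (0.153 to 1.1), did not exclude it either. The number of groups was 14, 23 and 7 when chained within 5 kb and 3, 7 and 4 within 20 kb. The cause of changes not set by construction was not tested. Without depth, a stretch with no peak cannot be taken as unbound.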

Other observations

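Some Runx1 peaks stood in consecutive rows of the list, although the list is not in genomic order. Of the 70 Runx1 peaks, 7 were in a row directly before or after another Runx1 peak, in 1 set of 3 rows and 2 sets of 2. None of the 47 Runx2 or 12 Runx3 peaks were. Peaks of a set were not neighbours on the genome, since other Runx1 peaks lay between them. Over the whole list, 2058 of 99161 rows were followed by a row on the same chromosome within 390 kb. That count looks 1 way only and over a longer distance than the Runx1 locus. A locus with more peaks also has more pairs that can be adjacent. The share for loci with the length and peak number of Runx1 was not computed.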
